A study of Drosophila melanogaster with 2 samples.

Results

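Mitochondrial ribosomal protein genes are the nuclear genes that encode the protein subunits of the ribosome inside mitochondria. They were taken here as every protein-coding gene whose symbol begins with mRpL (large subunit) or mRpS (small subunit) followed by a number, which gave 73 of the 13968 protein-coding genes on the 7 chromosome arms, 47 for the large subunit and 26 for the small subunit. Binding was read from chromatin immunoprecipitation and sequencing (ChIP-seq) of Worniu, a Snail-family DNA-binding protein with zinc fingers that is best known for its role in neuroblasts, the stem cells that build the nervous system. The material was whole Drosophila melanogaster embryos aged 0 to 18 h of 1 transgenic strain, wor-GFP, in which a fusion of wor with eGFP is expressed, and the fusion was precipitated with an antibody against GFP. The 2 biological replicates formed 1 group, both labelled with the same strain, so there was no condition, age or genotype to compare. Whole embryos mix all tissues, so a peak cannot be assigned to neuroblasts. No untagged or input library was analysed here, and the peak lists carry no read totals, which leaves the depth unknown. A test between groups could not be made, and every share below is a description.

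The mitochondrial ribosome descends from a bacterial one and makes only the few proteins that mitochondrial DNA encodes, all of them hydrophobic subunits of the respiratory chain and of ATP synthase. Its RNA comes from mitochondrial DNA, whereas all its proteins are encoded in the nucleus, translated in the cytosol and imported. The genes are small, active in most tissues and scattered over the genome. In the fly many of them stand head to head with another gene, so that the 2 genes are transcribed away from each other out of a shared stretch of intergenic DNA. Such a neighbour is called the divergent partner below. It was defined as a protein-coding gene on the opposite strand with a transcript start from 500 bp upstream to 100 bp downstream of a start of the ribosomal gene.

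A gene was counted as bound when the summit of a peak of the conservative list, made by the authors from both replicates, lay within 500 bp of any of its annotated transcript starts. By this rule 13 of the 73 genes were bound (17.8%, 95% Wilson interval 10.7 to 28.1, which covers counting error only), against 10.6% of all protein-coding genes. The bound genes were mRpL20, mRpL23, mRpL24, mRpL34, mRpL37 and mRpL41 of the large subunit (6 of 47, 12.8%) and mRpS2, mRpS6, mRpS7, mRpS10, mRpS23, mRpS24 and mRpS26 of the small subunit (7 of 26, 26.9%). The intervals of the subunits, 5.98 to 25.2% and 13.7 to 46.1%, overlapped. In the second list made from both replicates 11 of the 73 genes were bound (15.1%), against 10.9% of all genes. The list of replicate 1 alone gave 9 (12.3%) against 9.26%, and the list of replicate 2 alone also gave 9 against 7.81%. Of these, 8 genes were bound in both single-replicate lists (11%), against 6.95% of all genes. In each single-replicate list 4 large-subunit and 5 small-subunit genes were bound.

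The shares were then read by gene arrangement. A divergent partner was present at 53 of the 73 genes (72.6%), against 27.5% of all protein-coding genes. Of the 53, 12 were bound (22.6%, interval 13.5 to 35.5), against 21.1% of all genes that have a divergent partner. Of the 20 without a partner, 1 was bound (5%, interval 0.888 to 23.6), against 6.59% of all genes that have none. Within each arrangement the share of bound mitochondrial ribosomal protein genes was close to the background, with wide intervals. By spacing of the pair, read further below, the share was under the background for close pairs and above it for wider ones. That division was chosen after the values were seen and its shares have no interval, so they are not read as a result. The higher share of the whole set is not read as a result about ribosomal genes, and its relation to arrangement was not tested. By subunit, 5 of 34 large-subunit genes with a partner were bound (14.7%) and 7 of 19 small-subunit genes (36.8%), with overlapping intervals of 6.45 to 30.1% and 19.1 to 59%. A peak between divergent starts counts for both genes of the pair under this rule.

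**Figure D1:**
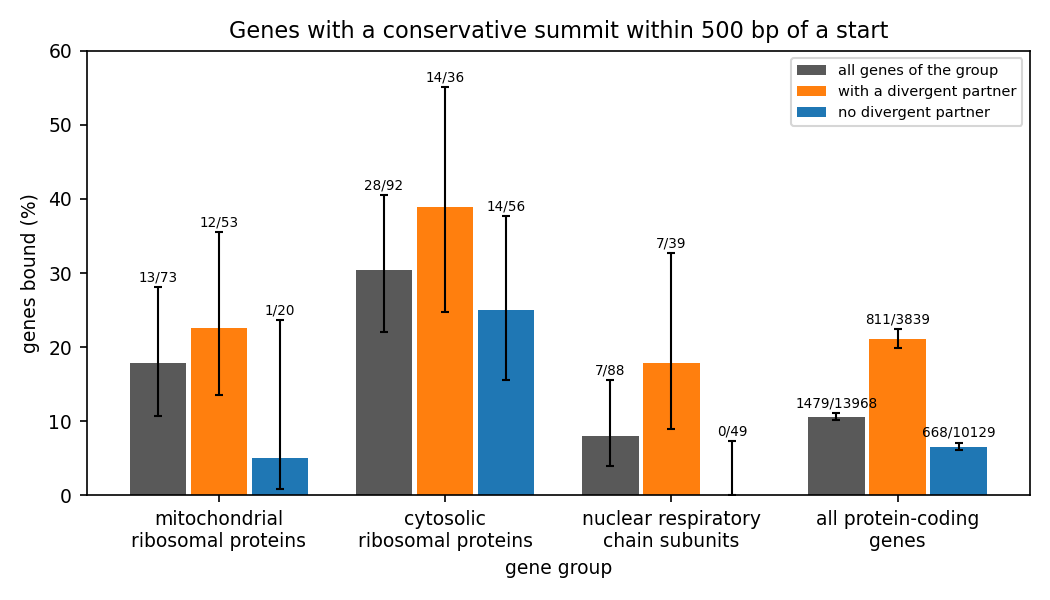
Share of genes (%) with a conservative summit within 500 bp of a start, for 4 gene groups, over all genes of the group (grey), genes with a divergent partner (orange) and genes without one (blue); error bars are 95% Wilson intervals and labels give bound over all genes. For mitochondrial ribosomal proteins the bars stand at 17.8, 22.6 and 5%, and for all protein-coding genes at 10.6, 21.1 and 6.59%.

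The sequence under the summits was rich in A and T at all 13 genes, with 68.3 to 83.2% A and T (median 75.2%) in the 101 bases centred on the summit. The sequences under 6 of the 7 strongest peaks are shown, since these are the regions bound in both replicates at high signal. That of mRpL41, the strongest, is not printed. Each is given 5′ to 3′ on the strand of the ribosomal gene, from the RefSeq Release 6 sequence in dm6 coordinates, with the summit at the middle base and with runs of at least 6 A or T in capitals.
mRpS10 (chr3R:15229476-15229576, plus strand): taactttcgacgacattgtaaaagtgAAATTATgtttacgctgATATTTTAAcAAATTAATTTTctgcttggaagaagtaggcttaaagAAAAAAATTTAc
mRpS23 (chr2L:13835414-13835514, minus strand): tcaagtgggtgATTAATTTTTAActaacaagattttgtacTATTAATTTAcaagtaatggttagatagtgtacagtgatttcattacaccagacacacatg
mRpL23 (chr3L:2373560-2373660, minus strand): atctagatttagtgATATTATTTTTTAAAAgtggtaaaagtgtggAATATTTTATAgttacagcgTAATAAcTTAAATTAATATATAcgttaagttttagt
mRpL20 (chr3L:13018063-13018163, minus strand): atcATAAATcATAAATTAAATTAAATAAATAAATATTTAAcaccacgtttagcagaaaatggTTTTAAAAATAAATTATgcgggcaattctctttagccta
mRpL24 (chr2L:4945451-4945551, minus strand): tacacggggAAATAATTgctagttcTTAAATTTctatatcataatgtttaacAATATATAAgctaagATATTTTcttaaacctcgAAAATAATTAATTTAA
mRpS2 (chr2L:4850497-4850597, minus strand): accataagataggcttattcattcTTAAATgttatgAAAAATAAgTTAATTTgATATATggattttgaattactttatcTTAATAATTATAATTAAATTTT
The capitals show between 2 separate runs at mRpS23 and 5 at mRpL24 and mRpS2, and the longest unbroken run was 30 bases, at mRpL20.

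The share of A and T was also high at the unbound genes. All 1180 conservative peaks with a summit within 500 bp of a protein-coding start had a median of 70.3% A and T in the same window. At the 60 unbound genes, a window of 101 bases centred 142 bp upstream of the start, the median summit distance of the bound genes, had a median of 71.3% (44.6 to 85.1%). The same window at the bound genes had a median of 75.2% (62.4 to 81.2%), so the bound and unbound genes overlapped, and over all protein-coding genes the median was 65.3%.

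By peak strength the bound genes were 7 with a signal of 286 or more and 6 with a signal of 136 or less. The 6 were weaker within the set only, since mRpS6 and mRpS7 among them lay above the median signal of the conservative list. Signal is a value the authors gave each peak, in arbitrary units, and it serves here only to rank peaks of the same list. Its median over the 13 genes was 286 (66.8 to 1226), against 135 over the 1180 peaks near protein-coding starts. Ranks are among the 3045 conservative peaks on the arms. The strongest 4 had ranks from 8 to 25. Of the 25 highest peaks of the list, the last being that of mRpL23, 17 lay within 500 bp of a protein-coding start.

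mRpL41 (FBgn0034001, 2R 15217024 to 15217617), a subunit found in mitochondrial but not bacterial ribosomes, had the highest peak of the set, at 2R 15217593 to 15217909 with the summit in intergenic DNA 142 bp upstream of the start. Its signal was 1226 in the conservative list (rank 8), 656 in replicate 1 and 574 in replicate 2. mRpS10 (FBgn0038307, 3R 15229665 to 15230516), the counterpart of a protein in the head of the bacterial small subunit, followed with 959 (rank 17), 543 in replicate 1 and 424 in replicate 2. Its summit was 139 bp upstream, in a peak at 3R 15229379 to 15229686. mRpS23 (FBgn0260407, 2L 13834250 to 13835072), a mitochondria-specific small-subunit protein, had 922 (rank 21), with 487 and 434 in the replicates. The peak, at 2L 13835315 to 13835611, had its summit 392 bp upstream, the farthest of the set. mRpL23 (FBgn0035335, 3L 2372844 to 2373704), counterpart of a bacterial protein at the mouth of the tunnel through which the new chain leaves the ribosome, had 842 (rank 25), with 451 and 394. In the replicates' own thresholded lists these 4 genes had ranks from 6 to 26 in replicate 1 and from 8 to 25 in replicate 2.

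The mRpL23 peak, at 3L 2373464 to 2373753, was the exception in position. Its summit lay 68 bp downstream of the nearest of the gene's 3 annotated starts, in the 5' UTR of some transcripts and the first intron of others. The other 12 summits were upstream of the gene and intergenic, 111 to 392 bp from the start, and the median over the 13 genes was 142 bp.

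The next 3 genes had signals between 286 and 355. mRpL20, whose bacterial counterpart is needed early in assembly of the large subunit, had 355 (rank 223), with 191 in replicate 1 and 165 in replicate 2. mRpL24, counterpart of another assembly protein beside the exit tunnel, had 348 (rank 240), with 198 and 155. mRpS2, counterpart of a bacterial small-subunit protein, had 286 (rank 352), with 138 and 147. These peaks, at 3L 13018039 to 13018219, 2L 4945391 to 4945592 and 2L 4850460 to 4850573, were the narrowest of the set, at 181, 202 and 114 bp.

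The 6 weaker peaks were all 364 bp wide, the median width of the list, and most were not recovered from 1 replicate alone. mRpS6, which in bacteria sits on the platform of the small subunit, had 136 (rank 1201), with 79.8 in replicate 1 and 60.7 in replicate 2. mRpS7, counterpart of the protein that organises the head of the bacterial small subunit, had 126 (rank 1349) and 79.0 in replicate 1. The thresholded list of replicate 2 did not hold the mRpS7 peak, and the longer ranked list of that replicate gave it 44.1. mRpS26 had 82.6 (rank 2285), mRpL37 78.9 (rank 2413), mRpL34 75.1 (rank 2513) and mRpS24 66.8 (rank 2702). None of these last 4 peaks was found in a thresholded list of 1 replicate. In the ranked lists, overlapping peaks had 41.0 and 42.9 at mRpS26 and 38.5 and 44.3 at mRpL37, for replicates 1 and 2. At mRpS24 they had 33.9 and 38.0. At mRpL34 replicate 2 had 42.2 and replicate 1 had no overlapping peak. The second list of both replicates held the mRpS24 peak and lacked those of mRpS26, mRpL37 and mRpL34.

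**Figure D2:**
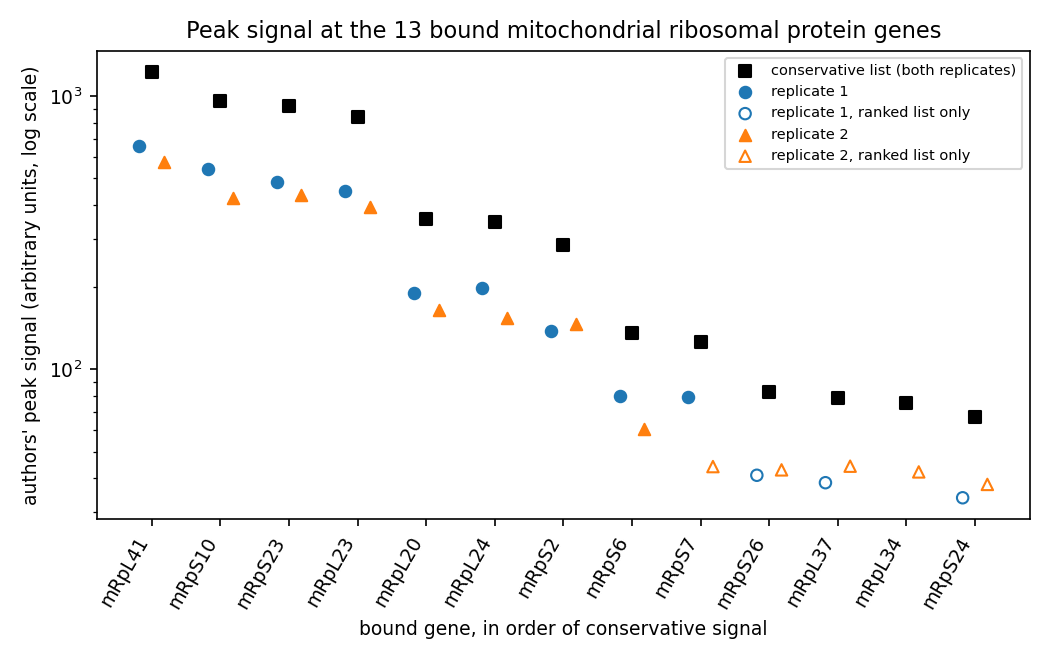
Authors' peak signal (arbitrary units, log scale) at each of the 13 bound genes, in order of the conservative list (black squares), with the overlapping peak of replicate 1 (blue circles) and replicate 2 (orange triangles); open symbols mark peaks found only in that replicate's ranked list. The first 4 genes lie between 842 and 1226 in the conservative list, and the last 4 lie below 100 with open symbols in the replicates that had a peak. Signal is not scaled between lists, so symbols of different shape are not compared in height.

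Every bound gene other than mRpL41 had a divergent partner within 500 bp, and the summit lay within 500 bp of both starts in all 12 pairs. The nearest divergent start to that of mRpL41 was CG8079, 762 bp away. The summit was nearer to the partner in 7 pairs, nearer to the ribosomal gene in 4 and 200 bp from each start in 1. The last was the pair of mRpS7 with Cdk1, the kinase that drives entry into mitosis, whose starts were 400 bp apart. In the pairs of mRpS10 and mRpS23, the strongest by signal, the summit was nearer to the partner. It was 118 bp from Art3, an arginine methyltransferase gene, beside mRpS10, and 100 bp from CenG1A, an Arf GTPase-activating protein gene, beside mRpS23. It was also nearer to Icmt (153 bp), which methylates prenylated proteins, beside mRpL20. betaggt-I (78 bp), a subunit of a geranylgeranyl transferase, stood in the same relation to mRpL24, and Mon1 (94 bp), a gene of endosome maturation, to mRpS2. Dg (186 bp), the dystroglycan gene, was the nearer start beside mRpL34, and Apc2 (150 bp), a negative regulator of Wnt signalling, beside mRpS24. At mRpL23, which has 3 starts, the 24 bp spacing and the summit distances refer to different starts. The pairs in which the ribosomal gene was nearer included that of mRpL23 with CG9004, the next in signal after the pair of mRpS23. They also included those with Cip4 (mRpS6), a membrane-bending F-BAR protein gene, and with CG13698 (mRpS26). A peak in such a pair cannot be assigned to 1 of the genes by position.

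**Figure D3:**
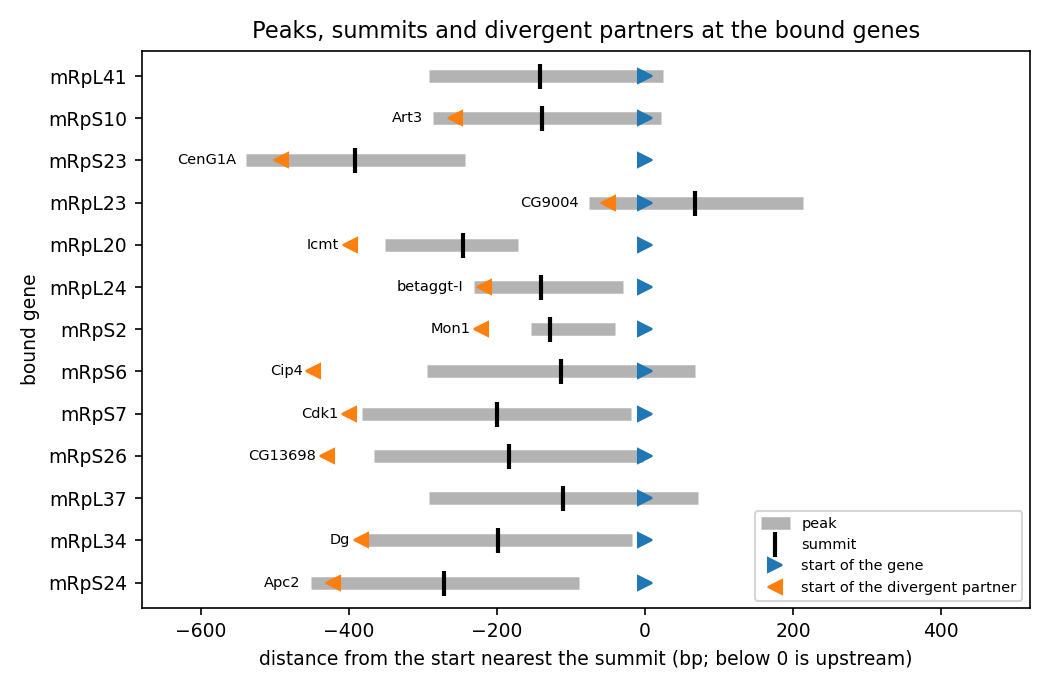
Position of each conservative peak (grey bar) and its summit (black line) relative to the start of the ribosomal gene nearest the summit (blue, at 0 bp; below 0 is upstream) and the start of the divergent partner (orange, drawn for 11 genes), to scale in bp for the 13 bound genes. In 12 of the 13 the summit lies upstream of the gene, and at mRpL23 it lies 68 bp downstream.

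The spacing of the pairs was read next. The distance between the starts of the 12 bound pairs had a median of 391.5 bp (24 to 492), and that of the 41 unbound genes with a partner had a median of 192 bp (20 to 499). The ranges overlapped almost entirely. Of the 22 genes whose partner start was less than 200 bp upstream, or up to 100 bp downstream, 1 was bound (4.55%), against 15.5% of all protein-coding genes with this spacing. Of the 31 with a spacing of 200 to 500 bp, 11 were bound (35.5%), against 24.9% of all such genes. Over all protein-coding genes with a partner, the median spacing was 254 bp for bound and 236 bp for unbound genes. The division at 200 bp was chosen after the values were seen. No interval was computed for the shares on either side of it, and they are not read as a result.

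The 60 unbound genes included most subunits of each kind. In the large subunit they were mRpL1, mRpL2, mRpL3, mRpL4, mRpL9, mRpL10, mRpL11, mRpL12, mRpL13, mRpL14, mRpL15, mRpL16, mRpL17, mRpL18, mRpL19, mRpL21, mRpL22, mRpL27, mRpL28, mRpL30, mRpL32, mRpL33, mRpL35, mRpL36, mRpL38, mRpL39, mRpL40, mRpL42, mRpL43, mRpL44, mRpL45, mRpL46, mRpL47, mRpL48, mRpL49, mRpL50, mRpL51, mRpL52, mRpL53, mRpL54 and mRpL55. In the small subunit they were mRpS5, mRpS9, mRpS11, mRpS14, mRpS16, mRpS17, mRpS18A, mRpS18B, mRpS18C, mRpS21, mRpS22, mRpS25, mRpS28, mRpS29, mRpS30, mRpS31, mRpS33, mRpS34 and mRpS35. By chromosome arm the bound genes were 4 of 12 on 2L, 2 of 12 on 2R, 4 of 17 on 3L and 3 of 21 on 3R. Of all protein-coding genes, 10.8% were bound on 2L, 9.47% on 2R, 11.4% on 3L and 11.2% on 3R. The X held 11 of the genes and 0 were bound. A count of 0 allows a share of up to 27.3%, and 10.2% of all protein-coding genes of the X were bound.

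Weaker peaks were read from the ranked lists, which hold many peaks of low reproducibility, measured by the irreproducible discovery rate (IDR), and the conservative peaks have a −log10 IDR of at least 2.00. Of the 73 genes, 23 (31.5%) had a peak within 500 bp in the ranked lists of both replicates, against 28.6% of all protein-coding genes, and 12 of the 23 were bound in the conservative list. Of the 60 unbound genes, 11 had a peak in both ranked lists (18.3%), against 20.4% of all unbound protein-coding genes. At 30 of the 60 (50%) neither ranked list had a peak, against 45.5% of all unbound genes. mRpS22 came closest to the limit, with a signal of 74.9 and a −log10 IDR of 1.89 in the ranked list of both replicates. It had 40.8 in the ranked list of replicate 1 and 30.01 in that of replicate 2, and it was bound in the thresholded list of replicate 2 and in the second list of both replicates. mRpS5 had 63.6 and a −log10 IDR of 0.75, mRpL54 had 59.3 and 1.15, and mRpS31 had 57.9 and 1.38. The bound gene with the lowest signal, mRpS24, had 66.8, so the signals just inside and just outside the list overlapped. No unbound gene had a conservative summit farther than 500 bp but nearer than 1197 bp from its start, the distance found at mRpL27.

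The promoters of the whole set were searched for short motifs from 250 bp upstream to 50 bp downstream of the outermost start, on both strands. The most frequent of the 11 was CAGCTG, the core of the Ohler5-type E-box of fly core promoters. It occurred in 40 of the 73 promoters (54.8%), against 17.7% of all protein-coding promoters. It was present at 6 of the 13 bound genes (46.2%) and 34 of the 60 unbound genes (56.7%), shares that are close to each other. Most sites lay at the start itself: 35 of the 73 genes (47.9%) had a site beginning within 50 bp of the start, against 9.33% of all genes. Sites of the bound genes whose sequence is printed here are given 5′ to 3′ on the strand of the gene, in dm6 coordinates from RefSeq Release 6, with the hexamer in capitals and 12 bases on each side.
mRpL23 (chr3L:2373715-2373744, minus strand): gtggttgacaatCAGCTGtttaaaacaagt
mRpL24 (chr2L:4945324-4945353, minus strand): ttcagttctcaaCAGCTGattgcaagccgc
mRpL24, second site (chr2L:4945581-4945610, minus strand): gtccacaaatagCAGCTGcttcttcttacc
mRpS2 (chr2L:4850413-4850442, minus strand): aacactacccacCAGCTGtttaccaaaatc
mRpS24 (chr3R:24163508-24163537, minus strand): cgtcacgtcaatCAGCTGttgctggacgca
mRpS6 (chr3L:4364552-4364581, plus strand): ctttccttgcatCAGCTGttaacactatca
mRpS6, second site (chr3L:4364568-4364597, plus strand): tgttaacactatCAGCTGgtgggtcaacaa
The site of mRpL23 began 28 bp upstream of the start and that of mRpS2 11 bp upstream, and the first sites of mRpL24 and mRpS24 each began 20 bp downstream. The second site of mRpL24 began 237 bp upstream of its start, close to the start of betaggt-I, 218 bp away. A further site of mRpS2, 245 bp upstream, likewise lay close to the start of Mon1.

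The motifs were then searched near the summits of the bound genes. Since 85.2% of conservative summits lie at the middle of the peak, distance from a summit has limited resolution. At mRpL41, mRpL23 and mRpS6 a CAGCTG site lay inside the peak, though farther than 50 bp from the summit. Within 50 bp of the summit CAGCTG occurred at 0 of the 13 peaks, against 3.47% of all 1180 peaks near protein-coding starts. The Snail-type E-box CAGGTG also occurred at 0 of 13, against 1.95%, and its reversed control GTGGAC at 0, against 1.19%. At 13 peaks a count of 0 cannot be told from shares this low. Of the other motifs searched, GAGAG occurred at 1 of the 13, that of mRpS24, against 7.37%. The Myc-type CACGTG, the DRE TATCGATA and its core ATCGAT, the M1BP-type GGTCACACT and its core GTCACACT, and TTACGTAA and TTATGTAA occurred at 0. In the promoters, CAGGTG was found at 0 of the 13 bound and 6 of the 60 unbound genes, against 9.34% of all genes. Its reversed control GTGGAC was at 10 of the 73 (13.7%), 1 of them bound, against 6.67%. The DRE TATCGATA, a core promoter element of housekeeping genes, was at 15 of the 73 (20.5%), 2 of them bound, against 9.36%. ATCGAT, which the DRE contains, was at 27 (37%) against 23.3%. The M1BP-type GGTCACACT was at 8 (11%), none of them bound, against 6.04%, and its core was in no further promoter of the set. GAGAG was at 12 (16.4%) against 29.8%.

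**Figure D4:**
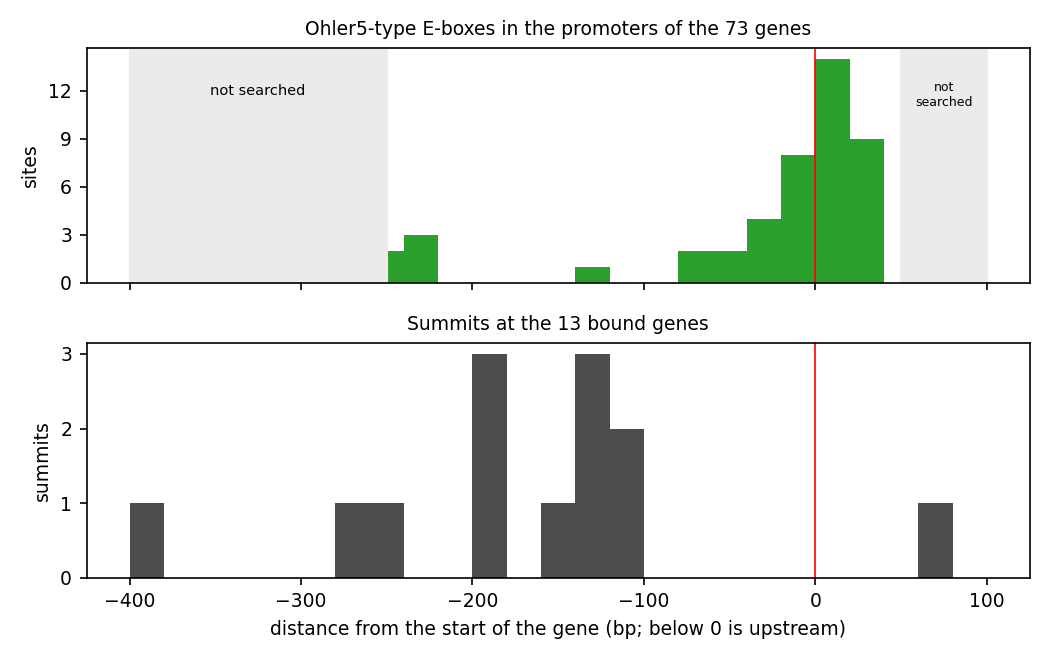
Distance from the start of the gene (bp, below 0 is upstream; red line at 0) of 45 CAGCTG sites in the promoters of 40 of the 73 genes (upper, measured from the outermost start, grey areas not searched) and of the summits at the 13 bound genes (lower, measured from the start nearest the summit), in bins of 20 bp. The sites gather around the start and 12 of the 13 summits lie upstream of it.

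Other genes of mitochondrial gene expression were read by the same rule. The lists share the function of the set and were chosen with earlier results of these data known. tko and bonsai, which encode small-subunit proteins of the mitochondrial ribosome under other symbols, were unbound in the conservative list and in both replicates. Of 18 genes for mitochondrial transcription, RNA processing and translation factors, 3 were bound (16.7%, interval 5.84 to 39.2). PNPase, which encodes a mitochondrial exoribonuclease, had 959 (rank 18) with 522 in replicate 1 and 441 in replicate 2, close to the value of mRpS10. mEFTu1, an elongation factor gene, had 82.7 and mTerf5, of the mitochondrial termination factor family, had 76.6, and both were in neither replicate's thresholded list. TFAM, PolrMT and mtTFB2, which start transcription of mitochondrial DNA, were unbound. Of 15 mitochondrial aminoacyl-tRNA synthetase genes 1 was bound (6.67%), ProRS-m with 86.6. The nuclear genes for respiratory chain and ATP synthase subunits, taken by symbol prefix, had 7 of 88 bound (7.95%, interval 3.91 to 15.5). The prefix rule also takes in genes with a suffix L, such as COX4L, ND-20L and SdhAL, and Sdhaf3. These named genes were unbound, and no share without such genes was computed. All 7 bound genes were among the 39 with a divergent partner (17.9%, against 21.1% of all genes that have one). The highest signal of these 7 was 219, at ND-ASHI.

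Genes of the cytosolic ribosome were read in the same way. Of 92, 28 were bound (30.4%, interval 22 to 40.5), against 10.6% of all protein-coding genes. With a divergent partner 14 of 36 were bound (38.9%), against 21.1% of all genes that have one. Without a partner 14 of 56 were bound (25%), against 6.59% of all genes that have none. Signals of the bound cytosolic genes ran from 65.3 at RpL9 to 219 at RpL32, below the 7 strongest peaks of the mitochondrial set, whose lowest was 286 at mRpS2. The remaining mitochondrial peaks, from 66.8 at mRpS24 to 136 at mRpS6, all lay within the cytosolic range. No test of the difference between the mitochondrial and cytosolic ribosomal sets was made. The intervals of their shares, 10.7 to 28.1% and 22 to 40.5%, overlapped.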

How the data were processed

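ChIP-seq peak lists of 2 biological replicates of whole wor-GFP embryos were analysed, with no control library. Per the deposited sample notes, the lists were made from alignments to dm6; per the labels, chromatin was sonicated and fragments measured 200 to 800 bp. The names of the aligner and peak caller, not given in the sources used here, remain unknown. Deposited signal has 1 value for each peak, with no common scale across lists. The ranked lists, as deposited by the authors, add a −log10 IDR. Each deposited summit is a distance from the peak start; 85.2% of conservative summits lie at the middle of the peak, so their resolution is limited.

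Peaks on 7 arms were used (3045 of 3064 conservative peaks). Genes and starts came from Ensembl release 115, sequence from RefSeq Release 6, whose arm lengths hold every peak. Replicate peaks were matched by summits within 100 bp in thresholded lists and by an overlap of at least 1 bp in ranked lists. Motifs were matched exactly with Python 3.11.15, and intervals were computed with statsmodels 0.14.6. The peak-to-start and partner rules were tested on planted peaks. Of 20 names in the gene expression list, mEFG2 and LRPPRC2 were not matched. Members and lists were chosen with earlier results of these data known. The text names every bound gene, every gene bound in another thresholded list, and the partners of bound genes, except 1 partner that is not reported here; further genes of the comparison lists were named after their values were seen. Alternatives were other lists, windows, starts and partner rules.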

Additional observations from a re-analysis of the deposited data

How the results depend on the processing

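The count of 13 bound genes was within 1.5 times of the original under 8 of 10 alternatives, at 9 to 13. It was 9 without replicate 1 and 9 without replicate 2. Of the 9 in replicate 1 all were among the 13, and of the 9 in replicate 2, 8 were. With a window of 200 bp it was 10, with a wider window 13, among the stronger peaks of the list (above the median signal) 9, and with RefSeq starts or outermost starts 13. It was 5 when the peak itself had to cover a start, and 5 when the nearest start had to belong to the ribosomal gene; mRpS7 was tied with Cdk1 and not counted. By construction, these rules drop peaks that lie between divergent starts without covering one, or that lie nearer to the partner. The count of bound genes with a partner was 12, and 13 with partners accepted from farther away. Within 100 bp of the summit, in place of 50 bp, the hexamer CAGCTG occurred at 1 peak in place of 0, as did the Myc-type motif (1 peak) and the core ATCGAT (1 peak), and the motif GAGAG at 2 in place of 1. The other 7 motifs kept their count of 0. Depth is unknown, and 4 of the 13 genes were in neither replicate's thresholded list, so the weaker calls rest on the list of both replicates. No paired analysis was possible because there was 1 group.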

Other observations

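The Ohler5-type E-box CAGCTG was as frequent in other genes of mitochondrial gene expression as in the mitochondrial ribosomal protein genes. It occurred in 10 of 18 promoters of the transcription, RNA processing and translation factor list (55.6%), in 7 of 15 of the mitochondrial aminoacyl-tRNA synthetase genes (46.7%) and in both tko and bonsai. Promoters of nuclear respiratory chain genes held it in 21 of 88 cases (23.9%) and those of cytosolic ribosomal protein genes in 9 of 92 (9.78%), against 17.7% of all protein-coding promoters. These shares are descriptions of sequence and carry no binding value.

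Conservative peaks stood near 4 unbound genes of the set, outside the window. The peak past the 3' end of mRpL27, with its summit 1197 bp downstream of the start, had a signal of 92.5 and is the one that counted for RpL27A, a cytosolic ribosomal protein gene, 41 bp upstream of its start. A peak of 572 (rank 83) lay 1913 bp upstream of mRpL46, one of 228 lay 1446 bp downstream of the start of mRpL13, and one of 69.5 lay 1976 bp upstream of mRpL33.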
